A study of Mus musculus with 34 samples.

Results

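The mitochondrial genome of the mouse gave 37 listed genes, taken as all genes whose symbol begins with mt-: 13 mRNAs, 2 rRNAs and 22 tRNAs. They are 37 of 37145 genes in the tables of cultured cells and 37 of 46785 genes in the tables of embryo sections. No measured value entered the choice. The study asked about the part of the long non-coding RNA Evx1as in the patterning of the embryo, and 30 libraries of the 34 samples in the labels had a table. The 4 other samples, pieces of posterior embryo, were not analysed here.

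The 6 culture libraries came from mouse embryonic stem cells of the strain 129S1/SVImJ, taken 4 days after the cytokine LIF, which holds such cells undifferentiated, was withdrawn. In this set 3 were the wild-type line CJ9 and 3 a line labelled 4x polyA KI (the knock-in line). Per the labels, total RNA was passed over mRNA-binding beads and made into stranded libraries. The 24 section libraries came from C57/B6 embryos at embryonic day 7, cut from frozen sections by laser capture and amplified by Geo-seq, a protocol for very small captured pieces. They were labelled Evx1as+/- (heterozygous) or Evx1as-/- (homozygous), so no section came from a wild-type embryo. The primitive streak gave 6 heterozygous and 5 homozygous sections, and the mesoderm layer gave 3 heterozygous and 5 homozygous ones, numbered by layer between 1 and 11, in a direction that is not stated. The anterior epiblast gave 1 section of each genotype. For the last 3 sections (2 heterozygous, 1 homozygous) the region in the title is not that of the cell type label, and these entered no comparison. Neither the embryo behind a section nor a clone or thaw behind a culture is named.

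Mitochondrial DNA is a small circle that is copied into RNA from both strands. The long transcripts are cut at the tRNAs that lie between the other genes, which frees mRNAs for subunits of the respiratory chain and ATP synthase and the rRNAs of the mitochondrial ribosome. The rRNAs and most of the mRNAs then receive short A tails, while tRNAs receive a CCA end. The transcription, cutting and stability of all of them depend on proteins that the nucleus encodes. The mitochondria of an embryo are inherited from the egg.

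By GENCODE release M21 for the assembly GRCm38, the 13 mRNAs are 204 to 1824 bases long, mt-Rnr1 and mt-Rnr2 are 955 and 1582 bases, and the 22 tRNAs are 59 to 75 bases. All genes lie on 1 strand except 8 of the tRNAs and mt-Nd6. The ends of the rRNAs are shown because these members differed most between the genotypes, and the shortest and longest tRNA because no tRNA was listed above 0. The rRNA sequences are the last 60 bases, with runs of 4 or more A in capitals, and the tRNA sequences are whole genes with the last 3 bases in capitals. They lie at chrM:965-1024, chrM:2616-2675, chrM:11613-11671 and chrM:2676-2750, all on the + strand.
mt-Rnr1: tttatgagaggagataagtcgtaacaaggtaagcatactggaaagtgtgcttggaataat
mt-Rnr2: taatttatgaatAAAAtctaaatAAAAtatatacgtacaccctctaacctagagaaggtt
mt-Ts2: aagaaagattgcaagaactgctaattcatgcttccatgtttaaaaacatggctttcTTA
mt-Tl1: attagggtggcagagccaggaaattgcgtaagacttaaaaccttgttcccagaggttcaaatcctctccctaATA

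Of the 2 rRNA ends, that of mt-Rnr2 holds such runs. Over whole genes the longest run of A was 5 bases in mt-Rnr1, 7 in mt-Rnr2 and 3 to 8 in the mRNAs, with the shortest in mt-Nd6. A made up 37.8% and 38.2% of the 2 rRNAs and 22.2% to 40.7% of the mRNAs. Of the 22 tRNA genes 1, mt-Ty, ends in the letters CCA. This is a match of letters only and does not show that the CCA end is encoded there.

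Part of the mitochondrial genome is also present as a block of nuclear DNA on chromosome 1, at chr1:24611535-24616197 on the − strand, where GENCODE lists 7 unprocessed pseudogenes. Gm28661, Gm10925, Gm28437 and Gm10222 matched mt-Co2, mt-Atp6, mt-Co3 and mt-Nd4l without a difference over 681, 678, 783 and 294 bases, and Gm28439 matched mt-Nd4 over 876 bases. The copies of mt-Nd3 and mt-Co1 each differ by 1 base, over 345 and 483 aligned bases. The stretches holding these bases are shown because these are the only bases at which the aligned copies depart from the members. The differing base is in capitals: T3C in Gm28438 against mt-Nd3 and A1066T in Gm29216 against mt-Co1, with positions counted from 1 at the first base of the mitochondrial gene. The pairs lie at chrM:9459-9491 and chr1:24613087-24613119, and at chrM:6390-6423 and chr1:24616155-24616188.
mt-Nd3: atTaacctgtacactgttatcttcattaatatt
Gm28438: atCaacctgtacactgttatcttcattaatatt
mt-Co1: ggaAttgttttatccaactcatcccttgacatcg
Gm29216: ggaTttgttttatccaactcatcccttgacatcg

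In the sections all 7 copies were listed beside their members. The unit is FPKM, fragments divided by the length of the gene and by the mapped fragments of the library, which allows levels of different genes to be compared. The ratio of copy to member had a median of 1.00 for mt-Co3, 1.02 for mt-Co2, 1.02 for mt-Nd3, 1.07 for mt-Atp6 and 0.933 for mt-Nd4l over the 24 sections, and for single sections it went as low as 0.479 and as high as 1.43 for mt-Nd3. For mt-Co1 it had a median of 1.36 with a range of 0.934 to 2.49, and for mt-Nd4, where the copy covers only part of the gene, 0.363 with a range of 0.200 to 0.472. The values of these 7 mRNAs in the sections therefore depend on how the counting divided reads between identical sequences, and they are uncertain to that extent. The culture tables list 2 of the copies by symbol, at 0.849 to 1.14 times mt-Nd4l for Gm10222 and 1.79 to 2.21 times mt-Atp6 for Gm10925. There Gm10925 has another identifier and a longer gene model than the copy aligned above, so its ratio is not that of the same stretch.

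**Figure D1:**
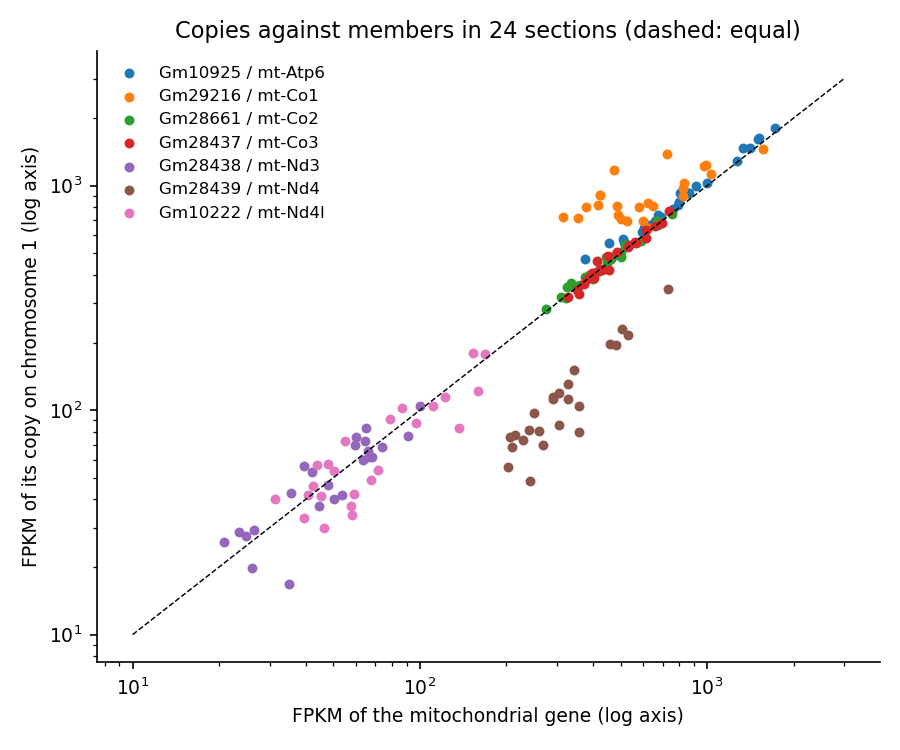
FPKM of each nuclear copy on chromosome 1 against that of its mitochondrial gene, on log axes, with 1 point a section and a dashed line where both are equal. The copies of mt-Co3, mt-Co2, mt-Nd3 and mt-Atp6 have median ratios to their members near 1. The ratio reaches 2.49 for the copy of mt-Co1 and stays between 0.200 and 0.472 for that of mt-Nd4.

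Evx1as, listed as 5730457N03Rik, was at 3.94 to 5.99 FPKM in the 3 wild-type cultures and at 0.0674 to 0.137 in the 3 knock-in cultures. In the sections it was listed at 0 in 10 of 12 homozygous libraries, with a highest value of 0.159, and it was below 1 FPKM in 10 of 12 heterozygous ones. The level therefore checks the labels in the cultures and in the 2 heterozygous sections at 1.71 and 4.57, but hardly in the others. Markers of the streak (T, Mixl1, Fgf8, Eomes, Wnt3) summed to 265 to 448 FPKM in heterozygous and 236 to 447 in homozygous streak sections, against 12.4 to 40.9 and 65.7 to 86.3 in the mesoderm. Within the streak sums the medians of single markers lay in opposite directions: that of T was 251 FPKM in heterozygotes and 63.0 in homozygotes, while that of Mixl1 was 83.2 and 209 and that of Eomes 16.6 and 56.1. The libraries hold no counts, so their depth is unknown. The FPKM of all genes summed to 502989.5 to 582183.6 in the cultures and 132928.5 to 376860.3 in the sections, where 6806 to 10959 genes reached 1 FPKM. In the names of the tables all 21 sections with an undisputed region carry the token L2, with index 1 to 12 for every heterozygous and 21 to 35 for every homozygous section, so genotype and index series cannot be told apart. The cultures and sections were prepared by different protocols and listed with different annotations, so their values stand side by side below without a test.

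All 22 tRNAs were listed at 0 in all 30 libraries. This says only that the tables give them no value, and tRNAs enter no comparison. The mRNAs and rRNAs had a value above 0 in every library.

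The 13 mRNAs together took 1.51% to 4.13% of the FPKM of a section and 0.324% to 0.624% of that of a culture. In the wild-type cultures the share was 0.574%, 0.395% and 0.516%, and in the knock-in cultures 0.324%, 0.460% and 0.624%, so the lines overlapped over nearly their whole range. The 6 heterozygous streak sections lay between 2.47% and 4.13% with a median of 2.82%, and the homozygous ones of layers 1, 5, 7, 9 and 11 were at 2.63%, 1.93%, 2.03%, 1.60% and 2.42%. In the mesoderm the heterozygous sections of layers 7, 9 and 11 were at 1.64%, 2.10% and 4.04%, and the homozygous sections of layers 3, 5, 7, 9 and 11 at 1.76%, 2.26%, 1.51%, 1.88% and 1.95%. Both heterozygous sections of layer 11 stood at the top, and on this total the genotypes overlapped in each region. These sections had 6806 (streak) and 7025 (mesoderm) genes at 1 FPKM or more, the lowest numbers among the sections. In the mesoderm this number was 7025 to 8057 in heterozygotes and 8420 to 9403 in homozygotes, without overlap. In the streak it was 6806 to 10959 and 9488 to 10559, with overlap. The part of this number in the mRNA and rRNA shares was not tested. The anterior epiblast section was at 2.02% in the heterozygote and 2.35% in the homozygote, with 1 section each and no replicate. This is the reverse of the order in the other regions, but only on this total, as given below for Yam1.

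The rRNAs took 0.413% to 3.02% of the FPKM of a section but 0.0028% to 0.0125% of that of a culture, where the RNA had been selected on beads. In the heterozygous streak the rRNA share ran from 0.793% in layer 11 to 3.02% in layer 7, with a median of 1.56%. The homozygous streak sections of layers 1, 5, 7, 9 and 11 were at 0.572%, 0.491%, 0.438%, 0.656% and 0.504%. Every homozygous streak section was thus below every heterozygous one. In the mesoderm the heterozygous sections of layers 7, 9 and 11 were at 1.74%, 2.73% and 1.38% and the homozygous ones of layers 3, 5, 7, 9 and 11 at 1.22%, 0.688%, 0.524%, 0.570% and 0.480%. These groups did not overlap either, although the homozygous section of layer 3 came close to the lowest heterozygous one. The anterior epiblast was at 1.48% in the heterozygote and 0.468% in the homozygote. The 2 heterozygous sections of disputed region were at 2.34% and 1.71% and the homozygous one at 0.413%.

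The same order held within matched layers. In 8 pairs of sections of the same region and layer, 5 in the streak and 3 in the mesoderm, the rRNA share was lower in the homozygote in 8, by a log2 difference of -2.79 (streak, layer 7) to -0.65 (streak, layer 11), with a median of -1.63. The mRNA share was lower in the homozygote in 8 of the same pairs, by -1.05 (mesoderm, layer 11) to -0.12 (mesoderm, layer 7), with a median of -0.38. The fall in the share was thus larger for the rRNAs than for the mRNAs in 7 of the pairs, the streak sections of layer 11 being the exception. The sum of FPKM depends on other abundant RNAs, so every library was also scaled by the median ratio of the nuclear genes at 1 FPKM or more in all libraries (3221 genes in the sections). After scaling, the rRNA sum was lower by a median log2 difference of -1.84 and the mRNA sum by -0.61 in the 8 pairs. All of these sections carry the token L2 in the names of their tables, and the index ranges there follow the genotype. No p is given for these sums.

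**Figure D2:**
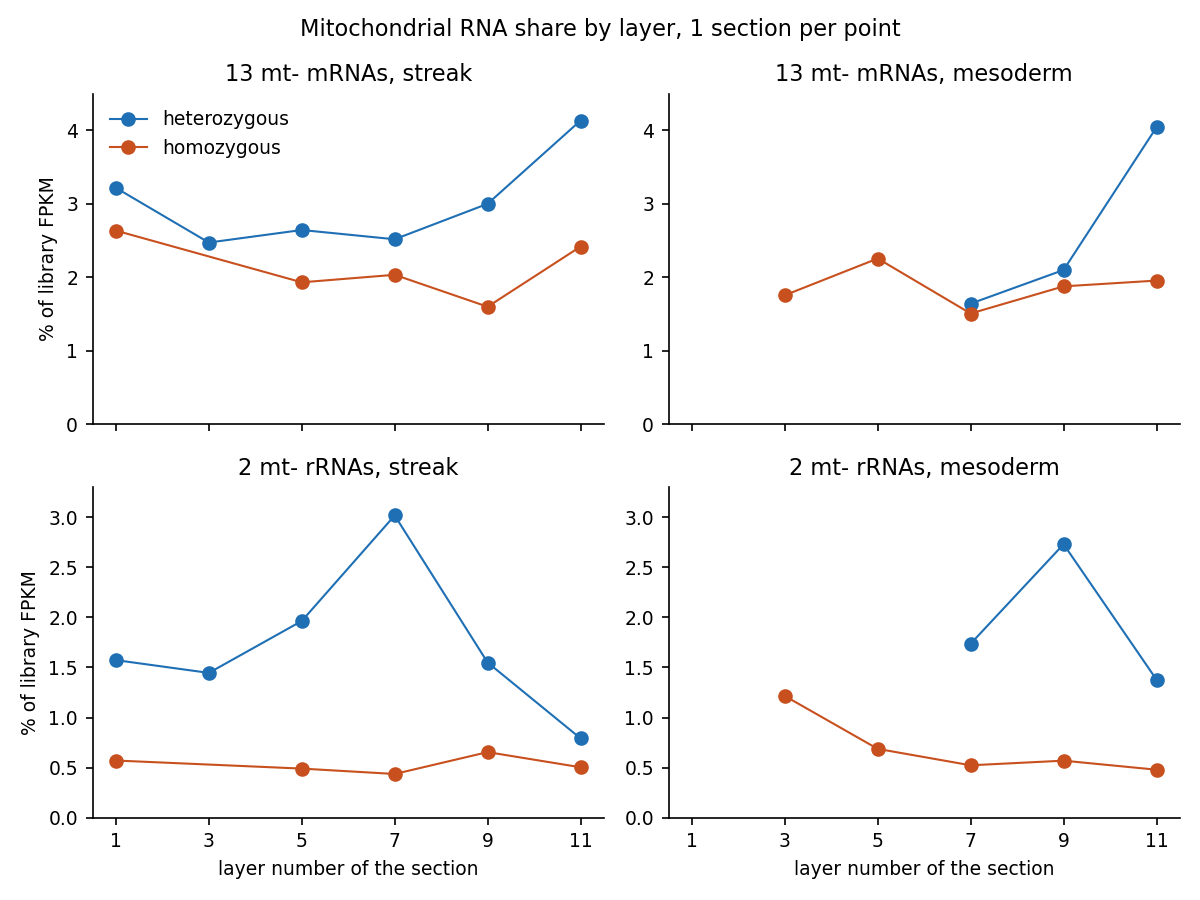
Shares of the mt- mRNAs and rRNAs by layer number in the streak and the mesoderm, in percent of the library FPKM, with 1 point a section and a line for each genotype. At each layer with both genotypes the homozygous point is the lower one, and the heterozygous rRNA share is highest at layer 7 in the streak (3.02%) and layer 9 in the mesoderm (2.73%).

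A single gene, Yam1, took 1.07% to 38.3% of the FPKM of a section and is not listed in the culture tables. With Yam1 left out of the total, the rRNA share was 0.807% to 3.57% in the heterozygous streak, 0.4655% to 0.732% in the homozygous streak, 1.42% to 2.76% in the heterozygous mesoderm and 0.529% to 1.56% in the homozygous mesoderm. The genotypes then overlapped in the mesoderm and not in the streak. The mRNA share without Yam1 was 2.98% to 4.21% in the heterozygous and 1.79% to 2.85% in the homozygous streak, without overlap. In the mesoderm it was 2.12% to 4.17% in heterozygotes and 1.63% to 2.48% in homozygotes, with overlap. The Pearson r of the Yam1 share and the rRNA share, on the log2 scale, was 0.915 over the 10 homozygous sections and 0.185 over the 9 heterozygous ones. Both shares have the same total, and the r is a description. In the anterior epiblast Yam1 took 29.3% of the FPKM in the heterozygote and 5.96% in the homozygote. Without Yam1 the mRNA share there was 2.86% in the heterozygote and 2.50% in the homozygote, so the heterozygote was then the higher one. The part of Yam1 in the rRNA and mRNA values was not tested.

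The small-subunit rRNA mt-Rnr1 (12S, part of the small subunit of the mitochondrial ribosome) was lower in homozygous sections. Its level in the heterozygous streak ranged from 318 to 2101 FPKM with a median of 1151, and in the homozygous streak it was 194, 144, 142, 565 and 163 FPKM in layers 1, 5, 7, 9 and 11. In the mesoderm it was 734, 2462 and 361 FPKM in the heterozygous layers 7, 9 and 11, and 404, 176, 148, 139 and 135 FPKM in the homozygous layers 3, 5, 7, 9 and 11. The homozygous streak section of layer 9 and the homozygous mesoderm section of layer 3 stood above the others of their groups and reached into the heterozygous range. Over both regions the mean was 1225 ± 796 FPKM (SD, n = 9) in heterozygotes and 221 ± 145 FPKM (SD, n = 10) in homozygotes. The difference on the log2(FPKM + 1) scale was -2.33 (SE 0.38), with an adjusted p of 0.00546 in limma with Benjamini-Hochberg adjustment over all genes and with region and layer in the model.

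The large-subunit rRNA mt-Rnr2 (16S, which holds the site where peptides are made) was lower in homozygous sections as well. Its level was 1089 to 5501 FPKM with a median of 4110 in the heterozygous streak and 1597, 1047, 1051, 1905 and 1191 FPKM in the homozygous layers 1, 5, 7, 9 and 11. In the mesoderm it was 3154, 4297 and 1471 FPKM in heterozygotes of layers 7, 9 and 11, and 2316, 1378, 1178, 1160 and 970 FPKM in homozygotes of layers 3, 5, 7, 9 and 11. The ranges overlapped in each region because the heterozygous section of layer 11 was low, and in the mesoderm also because the homozygous section of layer 3 was high. The means over both regions were 3509 ± 1485 FPKM (SD, n = 9) and 1379 ± 436 FPKM (SD, n = 10), a log2 difference of -1.26 (SE 0.23) with an adjusted p of 0.0104 in the same limma fit. After scaling, the differences were -2.61 (SE 0.31) for mt-Rnr1 and -1.55 (SE 0.18) for mt-Rnr2, each with an adjusted p of 0.000255 in limma.

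Both rRNAs passed the threshold of 0.05 over the 19 sections, where 0.115% of all 9527 genes passed it as lower on the deposited values and 0.735% after scaling. No section can be assigned to an embryo, so sections may share one, and p-values over sections are too small. They measure the spread between these samples, part of which may be technical. In bulk pieces such as these, fewer cells of a type and less RNA per cell cannot be told apart. Among the genes tested the median log2 difference was 0.24 on the deposited values and 0.05 after scaling, so members below 0 on the deposited scale stood against a general shift upward.

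The ratio of mt-Rnr2 to mt-Rnr1 also differed between the genotypes. It ranged from 1.75 to 4.82 in the 12 heterozygous sections with a median of 3.84, and from 3.37 to 8.86 in the 12 homozygous ones with a median of 7.34. The homozygous section at 3.37 was streak layer 9, and the other 11 were above every heterozygous section. In the cultures it was 6.98, 2.58 and 3.39 in the wild type and 4.47, 3.71 and 7.34 in the knock-in line, at levels of mt-Rnr1 of only 3.93 to 8.37 FPKM. This ratio is a description, with no test.

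Within the streak alone, neither rRNA passed on the deposited values, with differences of -2.32 (adjusted p of 0.172) for mt-Rnr1 and -1.31 (adjusted p of 0.247) for mt-Rnr2 in limma, where 0.0201% of 9932 genes passed. After scaling both passed at -2.61 and -1.60, each with an adjusted p of 0.0255 in limma, where 0.0705% passed. Within the mesoderm alone, neither passed on the deposited values (mt-Rnr1 -2.63, adjusted p of 0.0872, and mt-Rnr2 -1.34, adjusted p of 0.0886, limma), where 0.196% of 8695 genes did. After scaling both passed, at -2.97 (adjusted p of 0.035) and -1.69 (adjusted p of 0.0289) in limma, beside 0.242% of all genes. These calls rested on single sections. In the streak after scaling 0 of the 2 rRNAs passed without the sections of layer 1, without the homozygous section of layer 1, 5, 7 or 11, or without the heterozygous section of layer 3, 5 or 9, while as deposited both passed without the heterozygous section of layer 11 and 1 without the homozygous section of layer 9. In the mesoderm after scaling 0 passed without the homozygous section of layer 7, 9 or 11, and 1 without the homozygous section of layer 5 or the heterozygous one of layer 9. The test over both regions kept the calls of both rRNAs whichever section was left out. With no filter on low values mt-Rnr2 missed the threshold there as deposited, at an adjusted p of 0.0753, and mt-Rnr1 passed at 0.0353 (limma).

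Among the mRNAs, 1 of 13 passed over both regions as deposited, where 0.115% of all genes passed as lower. It was mt-Nd6, a subunit of complex I and the only mRNA read from the other strand. In the heterozygous streak it was at 260 to 510 FPKM with a median of 286, and in the homozygous streak at 223, 165, 154, 183 and 221 FPKM. In the mesoderm it was at 265, 437 and 430 FPKM in heterozygotes and 268, 177, 192, 192 and 224 FPKM in homozygotes, in the layer orders above. All homozygous streak sections were below the heterozygous ones, and in the mesoderm the homozygous section of layer 3 overlapped with a heterozygous one. The means were 341 ± 93.8 FPKM (SD, n = 9) and 199.9 ± 34.2 FPKM (SD, n = 10), a log2 difference of -0.76 (SE 0.16) with an adjusted p of 0.0259 in limma. It failed the test when layer entered as a block and with no filter on low genes, with 0 of 13 mRNAs called. It also failed without the heterozygous mesoderm section of layer 11, the homozygous mesoderm section of layer 11 or the homozygous streak section of layer 7 or 11, at adjusted p of 0.0501 to 0.0593 in limma. Whether the counting used the strand is not stated, and mt-Nd6 overlaps the end of mt-Nd5 on the other strand.

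After scaling, 7 of the 13 mRNAs passed as lower in homozygotes and 0 as higher, where 0.735% of all genes passed as lower. Of the complex I subunits these were mt-Nd2, mt-Nd3, mt-Nd4l, mt-Nd5 and mt-Nd6, with log2 differences of -0.75, -1.05, -1.07, -0.74 and -1.04 and adjusted p of 0.0302, 0.0391, 0.00352, 0.0279 and 0.0146 in limma. Of the subunits of complex IV, which passes electrons to oxygen, these were mt-Co2 and mt-Co3, at -0.75 (adjusted p of 0.00352) and -0.59 (adjusted p of 0.0116). The other 6 were also below 0: mt-Nd1 at -0.46, mt-Nd4 at -0.62, mt-Cytb of complex III at -0.61, mt-Co1 at -0.23, and mt-Atp6 and mt-Atp8 of the ATP synthase at -0.48 and -0.24. The median over the 13 was -0.62 against 0.05 over all genes, of which 44.3% were below 0. On the deposited scale the median was -0.33 against 0.24, and 11 of 13 were below 0 against 26.3% of all genes. The exceptions there were mt-Co1 and mt-Atp8, at 0.05 and 0.04. The choice of scaling thus moved the number of mRNAs called from 1 to 7.

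The gene mt-Co2 did not overlap between the genotypes after scaling, where 0.0315% of all genes were separated as lower over both regions. Its scaled level was 440 to 649 with a median of 465 in the heterozygous streak and 345, 285, 262, 304 and 331 in the homozygous streak. In the mesoderm it was 481, 542 and 909 in heterozygotes and 434, 348, 301, 336 and 364 in homozygotes. Its highest homozygous section, mesoderm layer 3, was just below its lowest heterozygous one, streak layer 3. Its nuclear copy Gm28661 differed by -0.74 on the same scale, so the pair moved alike.

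The scaled level of mt-Nd4l was 57.3 to 155 with a median of 112 in the heterozygous streak and 59.7, 40.7, 35.7, 41.9 and 45.3 in the homozygous streak. In the mesoderm it was 82.9, 89.6 and 81.8 in heterozygotes and 64.5, 38.1, 34.4, 73.7 and 39.4 in homozygotes. The heterozygous streak section of layer 11 was the low one in its group and the overlap came from it. Of the nuclear copies, 4 passed after scaling, namely Gm10222 at -1.07, Gm28437 at -0.63, Gm29216 at -0.60 and Gm28661 at -0.74, and none of the 7 was above 0. Of all genes 0.735% passed as lower on that scale. The copies share sequence with the members, so their calls are not separate from those of the members.

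**Figure D3:**
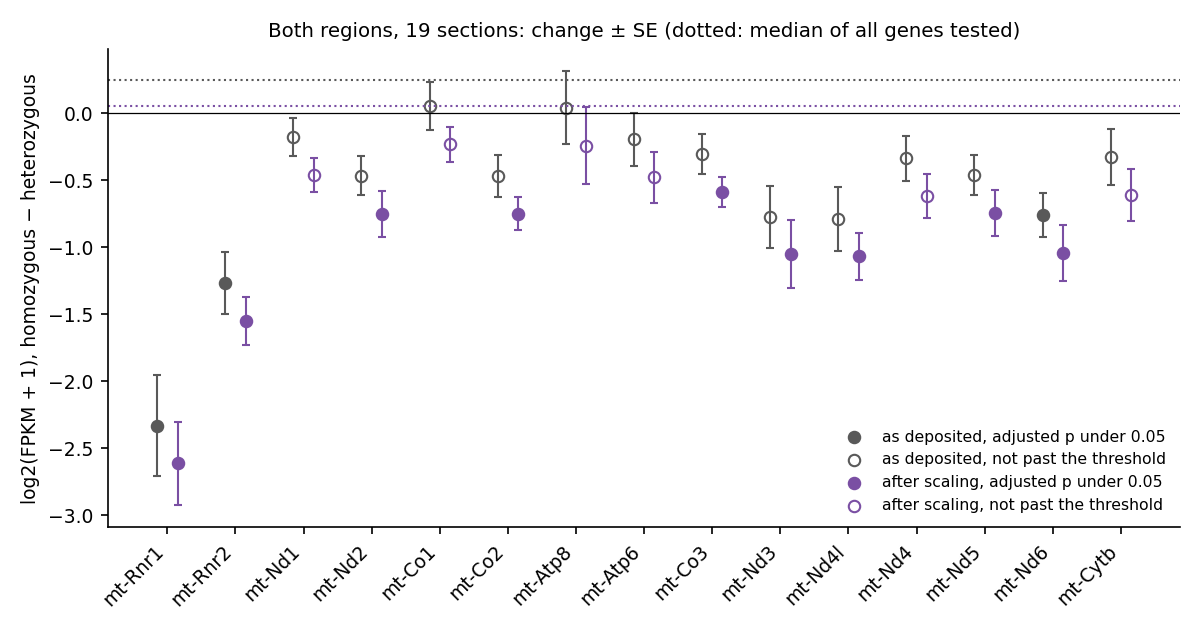
Log2 difference, homozygous minus heterozygous over both regions, of each mt- mRNA and rRNA with its standard error, on the deposited values and after scaling, with filled points where the adjusted p was under 0.05. The rRNAs lie lowest at -2.33 and -1.26 on the deposited scale, and after scaling every member lies lower and below 0.

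By region, 0 of 13 mRNAs passed in the streak and 0 of 13 in the mesoderm in limma, on either scale. At an unadjusted p under 0.05 there were 4 mRNAs in the streak as deposited and 13 after scaling, beside 10.2% and 10% of all genes, and 2 and 6 in the mesoderm, beside 15.5% and 15.4%. In the streak 13 of 13 were below 0, with medians of -0.44 as deposited and -0.72 after scaling. Only mt-Nd6 had no overlap between genotypes on the deposited values, where 0.101% of all genes were separated as lower. After scaling 6 mRNAs (mt-Nd1, mt-Nd2, mt-Co2, mt-Co3, mt-Nd5, mt-Nd6) and both rRNAs were separated, against 0.463% of all genes. In the mesoderm, with 3 heterozygous sections, 8 of 13 mRNAs were below 0 as deposited (median -0.17) and 11 after scaling (median -0.51). There mt-Nd3 was separated as deposited, where 1.06% of all genes were, and mt-Nd3, mt-Co2, mt-Nd6, mt-Nd4l and mt-Rnr1 after scaling, where 4.15% were. The complex I subunit mt-Nd3 was at 66.3, 91.0 and 73.9 FPKM in heterozygotes of layers 7, 9 and 11 and at 59.8, 44.5, 23.4, 42.1 and 20.9 FPKM in homozygotes of layers 3, 5, 7, 9 and 11, a log2 difference of -1.33 with an adjusted p of 0.166 in limma.

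The genotype difference itself was not shown to differ between the regions. Tested as genotype by region over the 19 sections, 0 of the 13 mRNAs and 0 of the 2 rRNAs passed, as did 0% of all genes, and 0 of these members had an unadjusted p under 0.05, which 3.54% of all genes had. The estimate for mt-Rnr1 was -0.08 with a standard error of 0.81, and for mt-Rnr2 0.07 with a standard error of 0.50. Such errors leave room for differences larger than the estimates. The widest estimate was that of mt-Atp8, which was below 0 in the streak (-0.38) and above 0 in the mesoderm (0.76), a difference of 1.07 (SE 0.53).

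Markers of the visceral endoderm, the layer that wraps the epiblast, also varied between the groups. The 8 markers (Amn, Cubn, Apoa1, Apob, Afp, Ttr, Rbp4, Cer1) summed to 1.59 to 58.7 FPKM in the heterozygous streak, where 4 of 8 had a mean of 1 FPKM or more, and to 0.507 to 559 in the homozygous streak, where 7 of 8 did. In the mesoderm the sums were 3.13 to 9.76 in heterozygotes, with 2 of 8 at that level and Afp at 0 in all, and 10.9 to 365 in homozygotes, with 6 of 8. Over both regions as deposited 0 of the 5 tested endoderm markers passed in limma, and 2 had an unadjusted p under 0.05, beside 20.2% of all genes. Within the mesoderm 0 passed, but 4 of 4 tested endoderm markers had such a p, beside 15.5% of all genes, with a median log2 difference of 2.10. Within the streak 0 of 7 had such a p, beside 10.2% of all genes. Over both regions as deposited, 4 of the 5 streak markers passed as higher in homozygotes and 1, T, as lower. After scaling, 2 of the 5 passed as higher and 1 as lower. Of the markers of the anterior epiblast and of pluripotent cells 2 of 5 and 2 of 4 passed as higher on either scale. These last lists share Sox2 and Utf1, so their counts are not separate. Of all genes 0.115% passed as lower as deposited and 0.735% after scaling. The number called in both directions as deposited is given with the alternatives below. Of the 6 markers of nascent mesoderm 0 passed over both regions in limma, and 1 had an unadjusted p under 0.05. The part of these cell types in the rRNA and mRNA differences was not tested.

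Compared within layers, mesoderm sections had lower deposited levels of some mRNAs than streak sections. Of the 7 pairs of a streak and a mesoderm section of the same genotype and layer, mt-Cytb, the mitochondrial subunit of complex III, averaged 1306 ± 505 FPKM (SD, n = 7) in the streak and 741 ± 174 FPKM (SD, n = 7) in the mesoderm. For mt-Atp6, a subunit of the ATP synthase, the means were 1019 ± 320 and 628 ± 144 FPKM, and for mt-Co1, the catalytic subunit of complex IV, 715 ± 190 and 470 ± 105 FPKM. The streak and mesoderm ranges overlapped for each of the 3. The log2 differences were -0.77, -0.68 and -0.59, with adjusted p of 0.0255, 0.0273 and 0.0359 in limma, and these 3 of 13 mRNAs and neither rRNA passed. On that scale 8.04% of all genes passed as lower and the median over all genes was -0.34. After scaling, 0 of 13 mRNAs and 0 of 2 rRNAs passed in limma, where 0.689% of all genes did, and 2 of the mRNAs had an unadjusted p under 0.05, as 14% of all genes had, with differences of -0.31 for mt-Cytb, -0.22 for mt-Atp6 and -0.13 for mt-Co1. The calls of lower mRNAs in mesoderm were thus made on the deposited scale only. There 0 mRNAs passed without the pair of heterozygous layer 7 or 9 or of homozygous layer 7 or 11, 1 and 2 without those of heterozygous layer 11 and homozygous layer 9, and 5 without that of homozygous layer 5.

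By position, 0 of the 13 mRNAs and 0 of the 2 rRNAs passed the test for a change with the layer number over the 19 sections, where 1.05% of all genes passed. At an unadjusted p under 0.05, which 14.5% of all genes had, were mt-Rnr2 at -0.10 (SE 0.04, adjusted p of 0.201 in limma) and mt-Co1 at -0.07 (SE 0.03, adjusted p of 0.237) on the log2 scale per layer number. The layer values of mt-Co1 in the heterozygous streak went from 1566 FPKM in layer 1 to 422 FPKM in layer 11, whereas in the homozygous streak they were 1033, 623, 824, 582 and 834 FPKM. The heterozygous section of layer 11 was the lowest for mt-Co1, mt-Rnr1, mt-Rnr2 and mt-Nd4l of the streak in its genotype and the highest for mt-Nd6.

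The make-up of the 13 mRNAs differed between the cultures and the sections, which also differ in protocol. In the cultures mt-Co1 took 43.5% of the sum of the 13 (range 38.9% to 53.2%), followed by mt-Nd4l at 10.9% (9.19% to 15.9%) and mt-Nd6 at 9.55% (8.80% to 12.6%). In the sections, as listed, mt-Cytb had the highest median at 17.4% (11.1% to 23.4%), followed by mt-Atp6 at 14.5% (10.2% to 19.5%), mt-Nd1 at 14.2% (10.0% to 16.0%) and mt-Co1 at 10.8% (5.76% to 14.9%). All 4 ranges overlapped, and those of mt-Atp6 and mt-Nd1 nearly wholly. This order depends on how reads were divided with the nuclear copies: mt-Atp6 was above mt-Cytb in 4 of 24 sections as listed and in 24 with the FPKM of its copy added. As listed, mt-Co1 was above mt-Cytb in 0 sections. Its copy has 492 bases against 1545, so their FPKM cannot be added and no order with the copy is given. The culture tables list only 2 of the copies, so the contrast with the sections depends on the division of reads too. The lowest median was that of mt-Nd3 in both, at 0.286% and 0.880%, and in the sections its range overlapped that of mt-Nd4l (1.22%, range 0.577% to 2.86%). In rank among all genes, mt-Cytb was between 3 and 60 in the sections and between 647 and 1499 in the cultures, and mt-Co1 was between 12 and 110 and between 45 and 100. Of the rRNAs, mt-Rnr2 ranked between 2 and 22 in the sections and between 1430 and 6006 in the cultures.

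**Figure D4:**
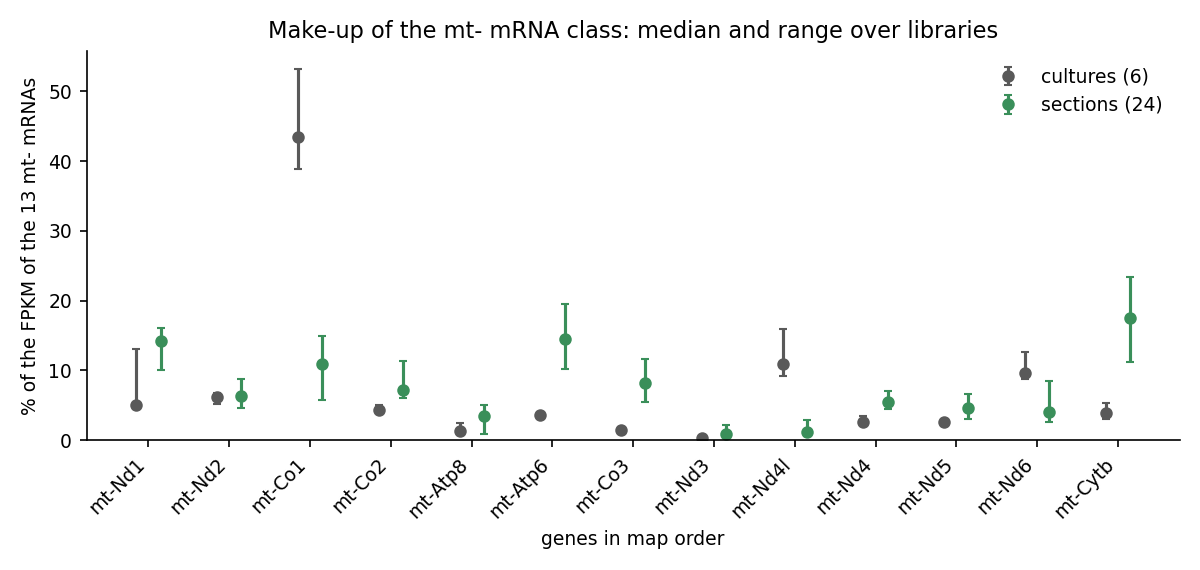
Each mt- mRNA as a percent of the summed FPKM of the 13 mRNAs, with the median and range over the 6 cultures and over the 24 sections. In the cultures mt-Co1 stands alone at 43.5%, while in the sections mt-Cytb, mt-Atp6 and mt-Nd1 have the highest medians as listed, without the nuclear copies, at 17.4%, 14.5% and 14.2%.

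Overlapping genes were not listed at equal levels. The genes mt-Nd4l and mt-Nd4 overlap on the same strand, and the ratio of mt-Nd4 to mt-Nd4l was 0.200 to 0.269 in the cultures and 1.96 to 7.93 in the sections. The ratio of mt-Atp6 to mt-Atp8, which also overlap, was 1.46 to 4.64 in the cultures and 2.52 to 16.0 in the sections. The ratio of mt-Nd6 to mt-Nd5, on opposite strands, was 3.53 to 4.49 in the cultures and 0.589 to 2.19 in the sections. The first 2 of these ratios include genes with nuclear copies, and mt-Atp8 and mt-Nd4l are the shortest mRNAs, at 204 and 297 bases.

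In the cultures no mitochondrial RNA passed the test between the knock-in and wild-type lines. Of the 13 mRNAs 0 passed and of the rRNAs 0, where 32.4% of all 13133 genes passed in 1 direction or the other. The largest shares were those of mt-Co1, at 1275, 831 and 1060 FPKM in the wild type and 912, 1424 and 1494 FPKM in the knock-in line, a log2 difference of 0.26 (SE 0.22, adjusted p of 0.394 in limma). For mt-Cytb the levels were 130, 108 and 124 FPKM in the wild type and 58.2, 82.6 and 111 FPKM in the knock-in line. All but 1 knock-in culture lay below the wild type. This difference, -0.57 (SE 0.22, adjusted p of 0.0816 in limma), was the only one of the 13 with an unadjusted p under 0.05, which 44.5% of all genes had.

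For mt-Nd1 the third knock-in culture stood apart at 455 FPKM, with the other knock-in cultures at 118 and 122 and the wild type at 145, 99.9 and 122 FPKM. That culture also had the highest mt-Rnr2, at 61.4 FPKM against 10.3 to 28.8 in the others, and the highest mRNA share. The log2 differences ranged from -0.63 for mt-Nd3 to 0.63 for mt-Nd1 with a median of -0.11, against 0.02 over all genes. Without that culture 3 mRNAs passed as lower in the knock-in line in limma, mt-Cytb at -0.79 (adjusted p of 0.0178), mt-Nd4 at -0.63 (adjusted p of 0.0329) and mt-Nd4l at -0.74 (adjusted p of 0.0303). Without any 1 of the other 5 cultures 0 passed. With all cultures in the fit 32.4% of all genes passed, so the 3 mRNAs are not read as particular to mitochondrial RNA. In these cultures streak markers summed to 279 to 422 FPKM in the wild type and 89.1 to 108 FPKM in the knock-in line. Markers of pluripotent cells summed to 483 to 604 and 1176 to 1359 FPKM. In limma 3 of 5 streak markers passed as lower and 0 as higher, and 3 of 5 pluripotent markers as higher and 0 as lower, beside 32.4% of all genes. Not all members followed the sums: the medians were 29.9 and 37.4 FPKM for Eomes and 37.8 and 33.9 for Nanog, wild type first. The lines thus differed in some of these markers, while with all cultures in the fit their mitochondrial RNAs gave no call. The part of cell state in these levels was not tested.

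The nuclear genes that act on mitochondrial RNA were taken from 4 lists. In the cultures, of 14 tested genes for mitochondrial DNA transcription and replication the knock-in line had 5 higher and 2 lower, of 30 for RNA processing and stability 6 and 3, of 10 translation factors 2 and 0, and of 7 nuclear regulators 2 and 0. Beside the 32.4% called over all genes, none of these counts is read as particular to the lists. Among the higher ones were Rpusd3, a pseudouridine synthase of mitochondria by its family, at 1.03 ± 0.235 FPKM in the wild type and 3.77 ± 0.704 FPKM in the knock-in line (SD, n = 3 each; log2 difference 1.23, adjusted p of 0.00326 in limma). Fastkd5, needed to mature some of the mRNAs, was at 1.05 (adjusted p of 0.0106), Ssbp1, which binds single-stranded mitochondrial DNA, at 1.01 (adjusted p of 0.0401), and Gabpa, a transcription factor of nuclear mitochondrial genes, at 0.81 (adjusted p of 0.0449). Among the lower ones were Grsf1, a protein of the RNA granules where transcripts are cut, at -0.98 (adjusted p of 0.0268), and Angel2 at -0.95 (adjusted p of 0.00727). Between genotypes, 0 genes of the 4 lists passed in limma in the streak, in the mesoderm or over both regions, on either scale. Over both regions 10 of their 53 tested genes had an unadjusted p under 0.05 as deposited, beside 20.2% of all genes.

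Between regions, 3 of 13 genes for mitochondrial DNA transcription and replication were lower in mesoderm as deposited, beside 8.04% of all genes, and 0 genes of the other lists passed. They were Mgme1, Mterf1a and Tfb2m. The initiation factor of the mitochondrial RNA polymerase, Tfb2m, was at 2.21 ± 0.786 FPKM in the streak and 0.660 ± 0.569 FPKM in the mesoderm (SD, n = 7 each; log2 difference -0.98, adjusted p of 0.0345 in limma). After scaling 0 of the genes of the 4 lists passed in limma, and 6 of 53 had an unadjusted p under 0.05, beside 14% of all genes.

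Among nuclear genes averaging 5 FPKM or more, the sum of the 13 mRNAs was followed most closely over the 19 sections by Gm10925, the copy of mt-Atp6, with a Pearson r of 0.944 on the log2 scale after scaling. It was followed by Gm28661 (0.845), Bclaf1 (0.813), Gm28437 (0.761) and Cyb5r3 (0.759), of 4005 genes compared. Of these 5, 3 are nuclear copies that share the members' sequence. For Bclaf1 the r was 0.927 within heterozygotes and 0.028 within homozygotes. The libraries share a scaling, and these correlations are a description.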

How the data were processed

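RNA was measured by sequencing in 6 culture and 24 section libraries, grouped by the labels. The authors deposited 1 gene table per library, with values in FPKM. Per the submitters' processing notes, CASAVA, TopHat2 2.0.11 and the genome mm10 were used. The step that made the FPKM values, its use of strand and its handling of reads with several matches are not given in the sources used here. Gene positions of the culture tables differ from mm10 outside the mitochondrial genome, so positions in the text are those of GENCODE for GRCm38. Counts were not used here, so the depth is unknown and neither counting intervals nor floors are given.

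Repeated identifiers (69 in the section tables) were summed, and any FPKM under 1e-06 was taken as 0. Shares are percent of the summed FPKM of a library. Tests used limma 3.58.1 in R 4.3.3 on log2(FPKM + 1), with a trend in the prior variance, for genes averaging 1 FPKM or more in the libraries compared. They were two-sided, with Benjamini-Hochberg adjustment over all genes tested and a threshold of 0.05. Fold changes are on the log2(FPKM + 1) scale, which understates the change of low genes. Cultures were compared without covariates, genotypes with layer as a number (and region where both were pooled), and regions within genotype and layer. Scaling used the median ratio over 3221 genes in the sections and 11119 in the cultures. Nuclear copies were found by aligning GENCODE transcripts (at least 90% identity over 100 bases).

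The text names all members, genes of the 4 pathway lists past the threshold (at most 6 a comparison, by size of change), nuclear copies, Yam1 and the 5 nuclear genes most like the mRNA sum. The members and lists were chosen with earlier results of these data known, so no pattern here is independent support for them. Alternatives were scaling, pseudocount, filter, prior trend, layer or replicate block, region labels, layer 1 left out and each library left out. On simulated data, the fit over both regions recovered 44 of 100 genes changed by 1 on the log2 scale and 90 of 100 changed by 2, against 0 and 15 in the mesoderm, 10 and 63 in the streak and 49 and 87 in the cultures.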

Additional observations from a re-analysis of the deposited data

Results flagged for a closer look

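In 57 sets of values in groups of 4 to 10 libraries, 8 had 1 library far from the others, by the gap to its neighbour as a part of the whole range, and chance marks about 1 in 20 such sets. Several of the 8 are measures of the same RNA in the same section and are not independent.

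In the homozygous streak the section of layer 9 held mt-Rnr1 at 565.3 FPKM, with the other 4 at 142.2 to 194. Its ratio of rRNA to mRNA was 0.41 against 0.2086 to 0.2543, and its ratio of mt-Rnr2 to mt-Rnr1 was 3.37 against 7.284 to 8.234. In the homozygous mesoderm the section of layer 3 held mt-Rnr1 at 404.1 FPKM, with the others at 134.9 to 176.1. Its rRNA share was 1.216% against 0.48% to 0.688%, and its ratio of rRNA to mRNA was 0.6924 against 0.2455 to 0.3478. These 2 sections were the homozygous sections with the highest mt-Rnr1 and had Yam1 shares of 10.5% and 22.2%, the highest of their groups.

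The heterozygous streak section of layer 11 held mt-Nd6 at 510.3 FPKM, with the other 5 at 259.7 to 330.3, and its Yam1 share of 1.76% was the lowest of its group. The homozygous mesoderm section of layer 5 held mt-Nd5 at 219.5 FPKM, with the others at 177.7 to 187.3.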

How the results depend on the processing

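Over both regions, both rRNAs passed under every alternative run except with no filter on low values, where 1 did, and the number of mRNAs called moved from 1 to 7 after scaling, 6 relative to the FPKM outside mitochondrial genes and Yam1 (the outside total), 0 with no filter, 0 with layer as a block, and 6 and 2 with the sections of disputed region added by title and by cell type label. The genes called there (119) were 19 with no filter, 192 with a filter at 5 FPKM, 30 with layer as a block, and 818 and 835 with the disputed sections. With 1 section left out, 43 to 577 genes and 0 to 2 mRNAs were called, and 4 to 9 mRNAs after scaling, the 4 without the heterozygous mesoderm section of layer 11 or the homozygous streak section of layer 7.

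In the streak, the genes called (2) were 7 after scaling, 1 with a pseudocount of 0.1, 0 with no filter or a filter at 5 FPKM, 1 with no trend, 0 with layer as a block, 1 with no layer term and 5 without layer 1. The rRNAs called were 2 after scaling, and of those 0 with layer as a block and 0 without layer 1. Leaving out 1 section gave 0 to 9 genes, 0 to 2 rRNAs as deposited and 0 to 2 after scaling. In the mesoderm, the genes called (17) were 0 with either other filter, 40 with layer as a block and 60 with no layer term. There 2 rRNAs were called after scaling and 2 with the outside total, 1 after scaling with no layer term, and with 1 section left out 0 to 139 genes, 0 to 1 rRNAs as deposited and 0 to 2 after scaling. The interaction called 1 gene after scaling, 2 with the outside total, 1 with no filter and 0 to 1 with a section left out.

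By layer, the genes called (100) were 52, 18 and 33 with a pseudocount of 0.1, no filter and a filter at 5 FPKM, 9 without layer 1 and 17 to 167 with a section left out. Between regions, the genes called (788) were 63 after scaling, 63 with the outside total, 37 with no filter, 346 with no trend and 158 to 743 with a pair left out. The mRNAs (3) were 0 under those first 4 settings, 7 with a filter at 5 FPKM and 0 to 5 with a pair left out. In the cultures, the genes called (4256) were 908 within the tables whose names carry L3 and 2693 to 3976 with a culture left out, and the mRNAs (0) were 1 within L3, 1 with the outside total and 0 to 3 with a culture left out.

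The labels number the cultures 1 to 3 in each line, but same-numbered cultures did not deviate together (correlations of -0.117, -0.053 and -0.051), so the numbers do not pair them. With the replicate block 3166 genes, 0 mRNAs and 0 rRNAs were called. Sections carry no replicate number in the labels, so no such block was fitted for them. Of 2174 values of single members under alternatives, 146 had the opposite sign, 0 of them for a member called in the deposited values, and 77 changed the call. The cause of these changes was not tested. The L3 tables, settings combined with scaling, and sections or pairs left out of the layer, region and interaction tests were chosen after the data were seen.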
